A study of Caenorhabditis elegans with 12 samples.

Results

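*mir-1* is the microRNA gene of muscle, and its members here were the lines of the deposited count table whose precursor is *mir-1*, in all 12 libraries. They were 2 lines, 1 for each arm of the hairpin, of 368 mature microRNAs in the table, and both arms had enough counts to be tested. The libraries came from whole worms of the wild-type strain N2, with no treatment, on days 1, 7, 14 and 21 of adulthood, with 3 biological replicates an age. Each library was made from a pool of handpicked worms. Worms were kept apart from their progeny by moving them to new plates up to day 10, and animals whose eggs had hatched inside them were taken out.

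A microRNA is cut from a hairpin into a 5p and a 3p arm, and as a rule 1 arm is loaded onto an Argonaute protein and guides it to messenger RNAs while the other is degraded. The 3p arm is the guide of *mir-1*. *mir-1* is among the most conserved microRNAs of animals and is made in muscle in worms, flies and mammals. In worms it is made in body wall and pharyngeal muscle and acts at the neuromuscular junction, where it lowers acetylcholine receptor subunits and the transcription factor MEF-2. In mammals its relatives act in heart and skeletal muscle.

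*mir-1* (WBGene00003260) lies on chromosome I of WBcel235, from 6172662 to 6172757 on the minus strand, and its hairpin is 96 nucleotides long. The 5p arm spans 6172716 to 6172737 (22 nucleotides) and the 3p arm 6172677 to 6172697 (21 nucleotides). The annotation has no protein-coding gene over the hairpin, and the nearest, T09B4.3, starts 2437 nucleotides away on the plus strand. A noncoding RNA, T09B4.14, overlaps the hairpin on the plus strand (6172671 to 6172796), and whether the counting used strand is not given in the sources used here. The authors aligned reads to an earlier build (WBcel215), so these positions come from the annotation by name and not from the counts.

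The libraries held between 5784056 and 16867232 counts, both of these on day 1, and the totals of days 7 and 14 lay between 6652468 and 7897687. Levels are given as CPM, which are counts per 1000000 after scaling by TMM, a factor that sets most microRNAs level between libraries. Mature microRNAs are of nearly the same length, so levels were not corrected for it. The miR-35 family (*mir-35* to *mir-42*), known from the germline and the embryo, held 2.34% ± 0.305 of all counts (SD, n = 3) on day 1 and 20.9% ± 0.966 on day 21.

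miR-1-3p was lower in old worms, and its level was nearly the same on day 14 and on day 21. In the day 1 libraries it had 191735, 64151 and 255585 counts, or 12275, 12534 and 13478 CPM. In the day 7 libraries it had 76193, 102961 and 63427 counts, or 10436, 11738 and 8366 CPM. These groups did not overlap, with every day 7 library under every day 1 library. In the day 14 libraries it had 42712, 53016 and 42055 counts, or 8024, 8158 and 6184 CPM. In the day 21 libraries it had 104522, 48921 and 36395 counts, or 8845, 8180.3 and 5791 CPM. All 6 libraries of days 14 and 21 lay under the day 1 libraries, and those of days 14 and 21 lay among each other. Separation from day 1 in either direction was shown by 54.7% of the microRNAs tested on day 7, 69.8% on day 14 and 73.5% on day 21. Replicate 3 was the lowest of its age on days 7, 14 and 21 and the highest on day 1, and replicates 1 of day 21 and 3 of day 7 made those ages overlap.

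**Figure D1:**
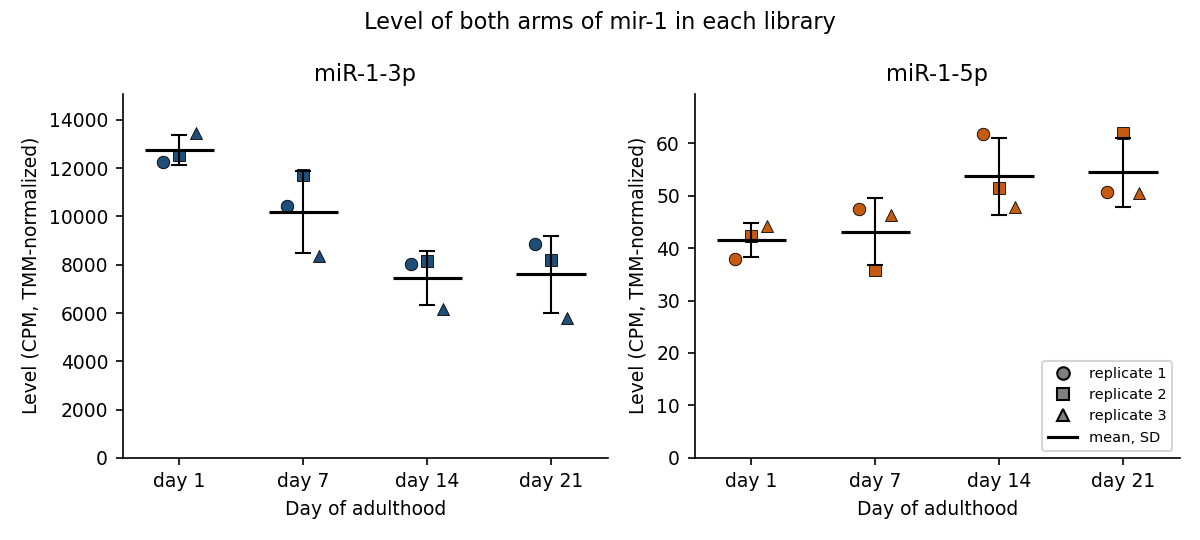
Level of miR-1-3p (left) and miR-1-5p (right) in CPM after TMM, by day of adulthood, with 1 point per library, its symbol giving the replicate, the mean as a line and the SD as bars. miR-1-3p averaged 12763 CPM on day 1 and 7605 CPM on day 21, while miR-1-5p stayed between 35.8 and 62.0 CPM in the 12 libraries.

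The mean level of miR-1-3p was 12763 ± 633 CPM (SD, n = 3) on day 1, 10179.8 ± 1700.4 on day 7, 7455 ± 1103 on day 14 and 7605 ± 1606 on day 21. Over the 4 ages it changed (F = 6.03, adjusted p = 0.012 from edgeR's quasi-likelihood test, with Benjamini-Hochberg adjustment over 245 microRNAs). So did 74.3% of the microRNAs tested. It fell on day 14 against day 1, with a log2 fold change of -0.78 (SE 0.22, 95% interval -1.24 to -0.31, adjusted p = 0.0059 from edgeR). On day 21 against day 1 it fell to 0.596 of the day 1 level, with an interval of 0.432 to 0.822 (adjusted p = 0.0068 from edgeR). The share of all microRNAs called was 69% on day 14 and 71% on day 21, and 34.7% and 35.9% were called lower. A call of this kind is thus common at these ages. Calls were made at an adjusted p under 0.05.

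Neither the step between days 1 and 7 nor that between days 7 and 14 passed the test. On day 7 against day 1 the log2 fold change was -0.33 (95% interval -0.79 to 0.14, adjusted p = 0.25 from edgeR), where 39.2% of microRNAs were called. Between day 7 and day 14 it was -0.45 (-0.91 to 0.01, adjusted p = 0.10), where 41.2% were called. All 3 day 14 libraries lay under the day 7 libraries. Such separation was shown by 62.9% of the microRNAs between these ages and by 54.7% on day 7 against day 1. Day 21 against day 7 gave -0.42 (-0.88 to 0.04, adjusted p = 0.11 from edgeR), where 52.2% were called. Day 21 against day 14 gave 0.03, and the interval of -0.43 to 0.49 leaves room for a level 0.741 to 1.41 times that of day 14. No microRNA passed between these ages (0% called), in edgeR or in DESeq2, with 12 and 16 of 245 at an unadjusted p under 0.05. The sizes of the early steps shifted with the library left out. Day 7 against day 1 gave -0.58 without day 7 replicate 2 and -0.51 without day 1 replicate 2. It gave -0.45 without day 14 replicate 1, a library outside that comparison. Day 14 against day 7 gave -0.30 without day 7 replicate 2 and -0.57 without day 7 replicate 3. The step between day 7 and day 14 passed with scaling by the library totals only (-0.68, adjusted p = 0.0278 from edgeR) and in DESeq2 (-0.49, adjusted p = 0.0495), and that of day 21 against day 7 passed without day 21 replicate 1 (-0.59, adjusted p = 0.033 from edgeR).

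miR-1-5p, the arm that is largely degraded, did not share the fall. It had 592, 217 and 838 counts in the day 1 libraries, or 37.9, 42.4 and 44.2 CPM. In the day 7 libraries it was at 47.4, 35.8 and 46.3 CPM, and these overlapped with day 1. It was at 61.8, 51.4 and 47.8 CPM in the day 14 libraries, from 329, 334 and 325 counts. It was at 50.7, 62.0 and 50.6 CPM in the day 21 libraries, from 599, 371 and 318 counts. After TMM, every library of days 14 and 21 lay above every library of days 1 and 7. By share of all counts day 14 and day 1 overlapped, at 0.00486%, 0.00452% and 0.00489% in the day 14 libraries against 0.00509%, 0.00375% and 0.00497% in those of day 1.

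The mean of miR-1-5p was 41.5 ± 3.24 CPM (SD, n = 3) on day 1, 43.2 ± 6.40 on day 7, 53.7 ± 7.28 on day 14 and 54.4 ± 6.58 on day 21. None of its comparisons passed. Over the 4 ages the adjusted p was 0.21 from edgeR. On day 14 against day 1 the log2 fold change was 0.37 (95% interval -0.09 to 0.83, adjusted p = 0.14 from edgeR). Day 21 stood at 1.31 times day 1 (0.953 to 1.80, adjusted p = 0.11 from edgeR), and at 1.26 times day 7 (0.917 to 1.74, adjusted p = 0.20). On day 7 against day 1 the log2 fold change was 0.06 (-0.40 to 0.52, adjusted p = 0.87 from edgeR), and it turned negative without 1 library in 11 of 12 fits. Libraries that do not overlap were common among all microRNAs, at 69.8% for day 14 and 73.5% for day 21 against day 1, and at 64.5% for day 21 against day 7. With scaling by the library totals only, the log2 fold change against day 1 was 0.04 on day 14 and 0.21 on day 21 (adjusted p = 0.872 and 0.393 from edgeR). With the miR-35 family left out of those totals, day 21 against day 1 passed (0.51, adjusted p = 0.0484 from edgeR).

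**Figure D2:**
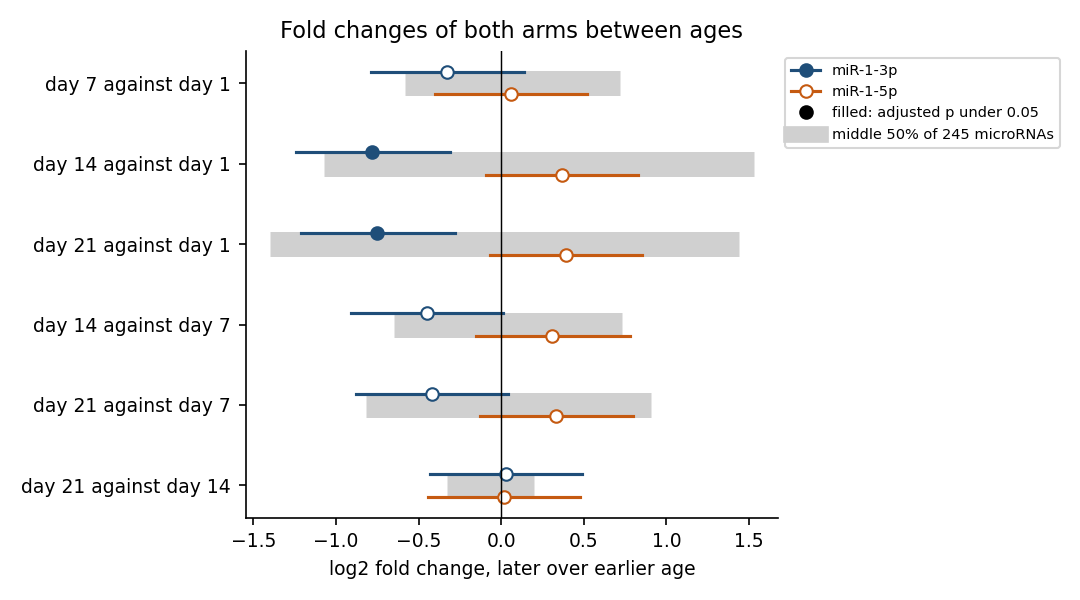
log2 fold change of miR-1-3p and miR-1-5p, later over earlier age, in the 6 comparisons, with the 95% interval of the fit, filled points for an adjusted p under 0.05 and grey bars for the middle 50% of the 245 microRNAs tested. Only miR-1-3p on days 14 and 21 against day 1 passed (-0.78 and -0.75), and both arms sat near 0 on day 21 against day 14.

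Both arms moved less than many microRNAs of these worms. The middle 50% of all log2 fold changes ran from -1.40 to 1.44 on day 21 against day 1, with a median of -0.06, and 83 of 245 microRNAs had a lower value than miR-1-3p. On day 14 against day 1 the median was -0.12 and 77 had a lower value. Replicates of *mir-1* were close after TMM. The SD of the log2 level within an age averaged 0.22 for miR-1-3p and 0.17 for miR-1-5p, against a median of 0.36 over all microRNAs tested. That median was not matched for level, and most microRNAs had fewer counts than miR-1-3p. For miR-1-3p the 95% Wilson interval of its share had a half-width of at most 1.02% of the value in any library. For miR-1-5p it was 6.77% to 13.3%. No molecular identifiers are named in the sources used here, so these intervals cover counting error only.

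miR-1-3p stepped down the order of abundance with age. It ranked 18th or 19th of 368 in the day 1 libraries, 21st to 26th on day 7, 30th to 32nd on day 14 and 28th to 32nd on day 21. Its rank also depends on microRNAs that rose past it, among them arms of the miR-35 family. The 3p arms of *mir-35* to *mir-40* had means of 206 to 8604 CPM on day 1 and 8366 to 90455 CPM on day 21. The share of miR-1-3p of all counts was 1.42% ± 0.282 (SD, n = 3) on day 1, 1.06% ± 0.223 on day 7, 0.660% ± 0.0497 on day 14 and 0.747% ± 0.161 on day 21. By share, the day 1 libraries were farther apart (1.65%, 1.11% and 1.52%) than after TMM, and replicate 2 overlapped with day 7 (1.01%, 1.30% and 0.866%). miR-1-5p took 0.00460% ± 0.000742 of the counts on day 1 and 0.00533% ± 0.0000956 on day 21, and ranked between 108th and 117th in all 12 libraries.

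**Figure D3:**
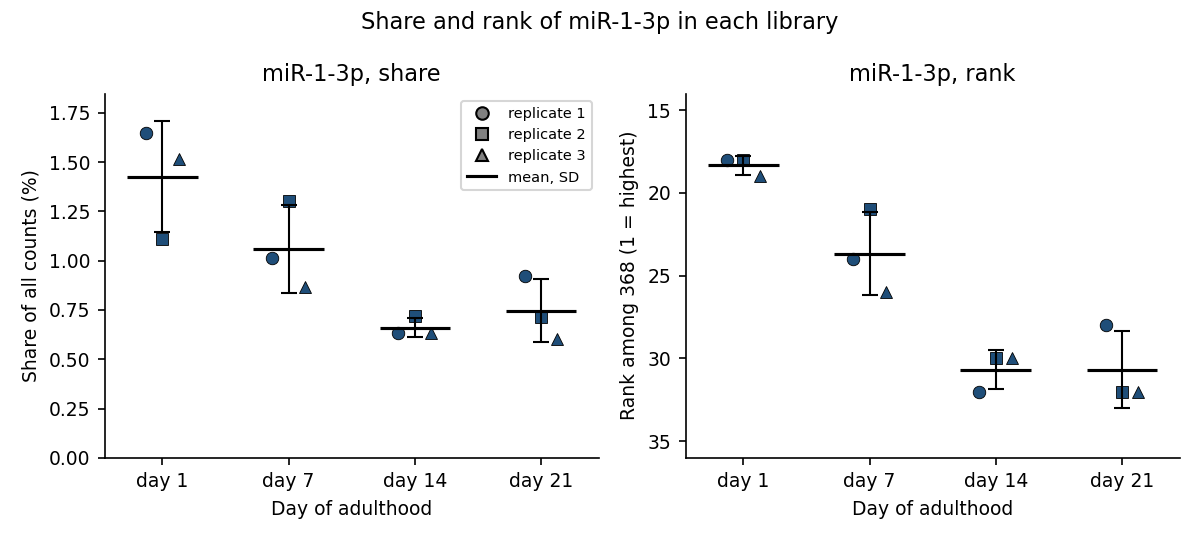
Share of all counts in percent (left) and rank among 368 microRNAs (right, 1 is the most abundant) of miR-1-3p in each library, by day of adulthood, with the mean and SD. The mean share was 0.747% on day 21, against 1.42% on day 1, and the day 21 libraries ranked between 28 and 32.

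Shares of 1 total depend on each other, so the share of miR-1-3p was also taken of the counts outside the miR-35 family. It was then 1.46% ± 0.292 (SD, n = 3) on day 1, 1.17% ± 0.231 on day 7, 0.834% ± 0.0597 on day 14 and 0.943% ± 0.196 on day 21. The means of days 14 and 21 stayed under those of days 1 and 7. For miR-1-5p the same share was 0.00472% ± 0.000773 on day 1 and 0.00673% ± 0.000195 on day 21.

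The neighbours of miR-1-3p in level were taken as the microRNAs next above and next below its mean at each age. Their nearness to it is thus set by the choice and is no result. On day 1 it stood between miR-72-5p (13749 ± 1943 CPM, SD, n = 3) and miR-238-3p (12664 ± 2560). On day 7 it stood between miR-90-3p (10193 ± 888) and miR-40-3p of the miR-35 family (9829 ± 974). On day 14 the neighbours were miR-246-3p (8321 ± 3541) and miR-61-3p (6994 ± 2175). On day 21 they were miR-246-3p (7812 ± 3848) and miR-84-5p of the let-7 family (7331 ± 1356). In each case the libraries overlapped with those of miR-1-3p, as this choice makes likely.

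The balance between the arms of *mir-1* shifted towards the 5p arm. This ratio is taken within a library and so needs no scaling between libraries. In the day 1 libraries there were 324, 295 and 305 counts of miR-1-3p for each count of miR-1-5p. The ratio was 220, 327 and 180 in the day 7 libraries, which overlapped with day 1. It was 130, 158 and 129 on day 14 and 174, 132 and 114 on day 21. All 6 of these lay under all libraries of days 1 and 7.

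The mean log2 ratio was 8.26 ± 0.07 (SD, n = 3) on day 1, 7.88 ± 0.44 on day 7, 7.11 ± 0.17 on day 14 and 7.11 ± 0.31 on day 21. It changed over the 4 ages (exact permutation test of the one-way F over 15400 arrangements, p = 0.0047, Benjamini-Hochberg adjusted p = 0.012 over 5 ratios). On day 21 the ratio was 0.448 of that on day 1, with 3 of 3 libraries lower (exact permutation p = 0.1, the smallest value possible for 3 libraries against 3, two-sided). It was 0.45 on day 14 against day 1 and 0.764 on day 7 against day 1 (exact permutation p = 0.1 and 0.4). Day 21 and day 14 overlapped, with a ratio of 0.996 between them.

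Most other hairpins shifted the other way, but the naming of the arms favours that direction. Arms were named less or more abundant by their counts over all 12 libraries, later ages included. An arm that rose with age was thus more likely to be named the more abundant. For *mir-2214* the arm named less abundant was the higher one on day 1 (log2 ratio 0.292). How much of the shift comes from this naming was not tested. In the 82 hairpins with both arms tested, the less abundant arm relative to the more abundant arm had a median log2 change of -1.19 on day 21 against day 1 and of -0.92 on day 14, while *mir-1* had 1.16 and 1.15. In each of these comparisons 22 hairpins had a positive value, and 9 had a higher one than *mir-1* on day 21 and 6 on day 14. On day 7 against day 1 the median was -0.14 and *mir-1* had 0.39, with 16 hairpins above it. The arms of *mir-1* were more unequal than most on day 1, with a log2 ratio of the less to the more abundant arm of -8.26 against a median of -5.47, and 18 hairpins had a lower one. These are descriptions of the libraries, and the place of *mir-1* among the hairpins was not tested.

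**Figure D4:**
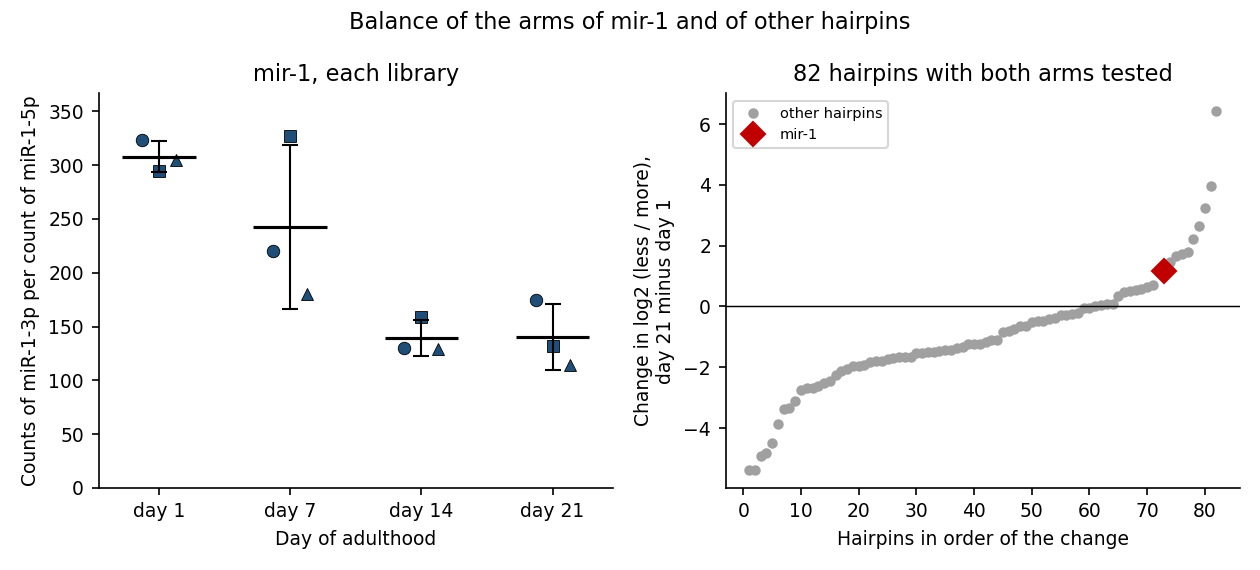
Left, counts of miR-1-3p per count of miR-1-5p in each library by day of adulthood, with the arithmetic mean and SD. Right, change of the log2 ratio of the less to the more abundant arm in 82 hairpins, day 21 minus day 1. Hairpins are in order of the change, and arms were named by counts over all 12 libraries. *mir-1* is the diamond at 1.16, where 9 hairpins lie above it.

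*mir-1* was then set against microRNAs that mark other tissues, in the same libraries. Fewer muscle cells in a worm and less of the microRNA in each cell cannot be told apart in RNA of whole worms, and *mir-1* is the only muscle marker in the list, so its origin in muscle was not checked. miR-60-3p, a microRNA of the intestine, was at 386 ± 202 CPM (SD, n = 3) on day 1, 282 ± 86.3 on day 7, 91.9 ± 26.5 on day 14 and 137 ± 61.0 on day 21. Both arms of *mir-60* were called lower on days 14 and 21 against day 1, where 34.7% and 35.9% of all microRNAs were called lower. The miR-60-3p libraries of day 21 overlapped with those of day 1. miR-60-5p was scarce, at 2.48 CPM on day 1, 0.163 on day 14 and 0.363 on day 21, so it adds little. miR-228-5p, a microRNA of glia, was at 20731 ± 6271 CPM on day 1, 11543 ± 1707 on day 7, 31869 ± 9772 on day 14 and 31163 ± 10136 on day 21. Its log2 fold changes of 0.62 on day 14 and 0.59 on day 21 against day 1 did not pass (adjusted p = 0.083 and 0.092 from edgeR). It was not steady, since it changed over the 4 ages (adjusted p = 0.0025 from edgeR), as did 74.3% of microRNAs. It was called lower on day 7 against day 1 (-0.84, adjusted p = 0.04 from edgeR). Against day 7 it was called higher on day 14 (1.47, adjusted p = 0.0024) and day 21 (1.43, adjusted p = 0.0018). In these 3 comparisons 39.2%, 41.2% and 52.2% of all microRNAs were called. The other arm, miR-228-3p, fell to 24.99 CPM on day 21, against 40.9 CPM on day 1 (log2 fold change -0.70, adjusted p = 0.038 from edgeR).

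No neuronal marker was called lower at any age. miR-234-3p, made in neurons, was at 317 ± 30.8 CPM (SD, n = 3) on day 1, 301 ± 5.54 on day 7, 336 ± 44.9 on day 14 and 337 ± 43.2 on day 21. miR-124-3p, a conserved microRNA of sensory neurons in worms, was at 6.62 ± 0.529 CPM on day 1 and 13.6 ± 2.72 on day 21, from 31 to 137 counts a library. It rose on day 21 against day 1 (log2 fold change 1.03, adjusted p = 0.027 from edgeR). *lsy-6*, which sets the identity of 1 gustatory neuron, had 15 to 90 counts a library. It was at 4.33 ± 1.33 CPM on day 1, 3.63 ± 1.19 on day 14 and 3.83 ± 0.431 on day 21. Its log2 fold changes against day 1, -0.28 on day 14 and -0.20 on day 21, did not pass (adjusted p = 0.44 and 0.57 from edgeR). Of the 3 neuronal microRNAs tested, 1 was called higher and 0 lower on day 21 against day 1. On day 14, 0 passed, and the median log2 fold change was 0.08. Of all microRNAs, 71% were called on day 21 and 69% on day 14, with 35.9% and 34.7% called lower.

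Within libraries, miR-1-3p changed against miR-234-3p, miR-124-3p and the glial marker. No ratio was taken to *lsy-6*. There were 40.4 counts of miR-1-3p for each count of miR-234-3p on day 1, 33.5 on day 7, 22.2 on day 14 and 22.3 on day 21 (geometric means, n = 3). This ratio had the smallest p of the 5 (exact permutation test of the one-way F, p = 0.0019, adjusted p = 0.0094). All libraries of days 14 and 21 lay under all those of days 1 and 7. Against miR-228-5p the ratio was 0.634 on day 1, 0.880 on day 7, 0.239 on day 14 and 0.250 on day 21 (exact permutation p = 0.0092, adjusted p = 0.012). Against miR-124-3p it was 1915 on day 1 and 554 on day 21, with the same p.

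Against the intestinal marker the ratio of miR-1-3p did not pass. It was 37.5 on day 1, 36.8 on day 7, 82.6 on day 14 and 59.3 on day 21 (exact permutation p = 0.21, adjusted p = 0.21). Replicates of this ratio were far apart on day 1, at 27.1, 78.9 and 24.7, with replicate 2 the highest. Day 21 was 0.66 above day 1 on the log2 scale (exact permutation p = 0.5), and the libraries overlapped. The miR-35 family, which marks the germline and embryos, moved with age in the same libraries. The sum of its levels was 18788 to 22410 CPM in the day 1 libraries and 191130 to 249188 CPM in those of day 21. The sum is not the course of every member, since 9 of the 15 arms tested rose and 3 fell on day 21 against day 1, where 71% of all microRNAs were called. miR-41-5p fell to 91.4 CPM on day 21, against 492 CPM on day 1 (log2 fold change -2.42, adjusted p = 0.0018 from edgeR). With the family left out of the library totals, miR-1-3p still fell, by a log2 fold change of -0.81 on day 14 (adjusted p = 0.00606 from edgeR) and of -0.63 on day 21 (adjusted p = 0.0223), each against day 1.

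**Figure D5:**
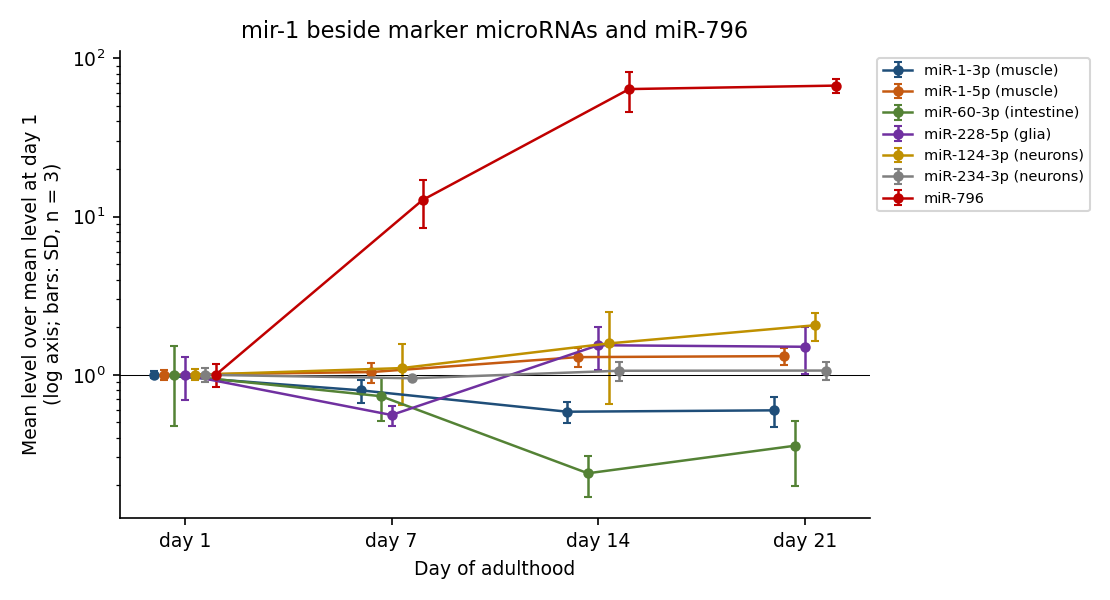
Mean level divided by the mean on day 1 (log axis) for both arms of *mir-1*, 4 marker microRNAs and miR-796, by day of adulthood, with SD bars (n = 3) around each mean. On day 21 miR-1-3p stood at 0.596 and miR-60-3p at 0.356 of day 1, miR-234-3p stood at 1.06, and miR-796 stood at 67.3 times day 1.

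miR-796 is placed in the family of miR-1 by microRNA catalogues because both carry the same seed, the bases near the 5′ end that pair with targets. It was named after its values were seen, and the seeds were not compared here. *mir-796* lies on chromosome X, from 1798928 to 1799016 on the minus strand. It had 1143, 616 and 743 counts in the day 21 libraries, against 20, 9 and 32 in the day 1 libraries. The mean was 1.58 ± 0.258 CPM (SD, n = 3) on day 1, 20.0 ± 6.64 on day 7, 101 ± 28.5 on day 14 and 106 ± 11.1 on day 21.

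miR-796 rose while miR-1-3p fell. Its log2 fold change was 3.68 on day 7, 6.01 on day 14 and 6.08 on day 21, each against day 1 (SE 0.35 and adjusted p = 6.3e-09 from edgeR on day 21). The libraries of the later ages did not overlap with those of day 1. This was so for 54.7% of all microRNAs tested on day 7, 69.8% on day 14 and 73.5% on day 21. Even so, miR-796 stayed a small part of the pair. miR-796 made up 0.0123% ± 0.00181 of the counts of miR-1-3p and miR-796 together on day 1 (SD, n = 3), 0.208% ± 0.106 on day 7, 1.34% ± 0.351 on day 14 and 1.44% ± 0.492 on day 21. The sum of both was 12764 ± 633 CPM on day 1 and 7711 ± 1595 on day 21, so it followed miR-1-3p.

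The microRNAs whose pattern was most like that of miR-1-3p over the 12 libraries were found by Pearson's r of the log2 CPM, as a description. The libraries of an age share that age and all share their scaling, and the median r over all microRNAs tested was 0.138. The 5 highest were lin-4-5p (0.917), which times larval development, miR-47-3p (0.914), miR-5592-3p (0.895), miR-82-5p (0.871) and miR-47-5p (0.868). All 5 fell on day 21 against day 1, from a log2 fold change of -0.86 for miR-47-5p to -2.37 for miR-82-5p, against -0.75 for miR-1-3p. They were picked for likeness to a microRNA that fell, so this direction follows largely from the choice. Of all microRNAs tested, 35.9% were called lower between these ages. The 3 lowest were miR-1820-5p (-0.941), miR-43-3p (-0.902) and miR-239a-5p (-0.884), and these rose, which follows from the choice in the same way.

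miR-1-5p ran with other microRNAs than its own partner arm. Between the arms, r was -0.608 over the 12 libraries. The 5 microRNAs most like miR-1-5p were miR-2209a-3p (0.895), miR-2208b-3p (0.868), miR-45-3p and miR-44-3p (0.865 each) and miR-2208b-5p (0.858). Which gene the counts of miR-44-3p and miR-45-3p come from is uncertain, since their levels were the same, so they are not separate cases. All 5 rose on day 21 against day 1, with log2 fold changes of 1.44 to 3.46, against 0.39 for miR-1-5p, which did not pass. These 5 were also picked for their likeness, so their shared direction is no separate result. Of all microRNAs tested, 71% were called between these ages.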

How the data were processed

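Small RNA of whole N2 worms was sequenced in 12 libraries, 3 for each of 4 ages. The authors aligned reads to the genome (WBcel215) with Tophat, mapped them to known microRNA sequences with miRDeep and deposited raw counts per mature microRNA and library. Tool versions are not given in the sources used here. The authors' deposited comparisons (fold changes and p-values from DESeq) were not used. Of 368 microRNAs, 7 were on more than 1 line, and the line with the largest total was kept for levels and tests. The library totals used for shares and scaling counted every line that names a microRNA.

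In R 4.3.3, edgeR 4.0.16 kept 245 microRNAs (filterByExpr by age, minimum count 10), scaled by TMM and fitted 1 quasi-likelihood model with age as the only term (8 residual degrees of freedom), with Benjamini-Hochberg adjustment and a threshold of 0.05. It was tested on simulated data. Ratios were log2 of counts plus 0.5, with an exact permutation test. For likeness, log2 CPM had a prior count of 1. The closing part gives the alternatives, DESeq2 1.42.0 among them.

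The members and lists were chosen with earlier results of these data known. Named were both arms of *mir-1*, markers with their more abundant arm, the microRNAs most and least like the arms, and the neighbours in level; the part of the rule on shared seeds could not be applied without sequences, and none are shown. Same-numbered libraries deviated together in every pair only at day 21 against day 1 (correlations 0.217, 0.415 and 0.413). A block for replicate changed no call of either arm of *mir-1*.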

Additional observations from a re-analysis of the deposited data

How the results depend on the processing

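The calls of miR-1-3p at days 14 and 21 against day 1 held in edgeR and DESeq2 under every alternative (adjusted p from 0.000408 to 0.021 and from 0.000898 to 0.0223). Without 1 library, its log2 fold change at day 14 ran from -0.95 to -0.81, all under the -0.78 of the full fit. At day 21 it ran from -1.0 to -0.73, around the -0.75 of the full fit. The 4 ratios that passed were tested by exact permutation only, and they passed under their 3 alternatives and without any 1 library. Between days 7 and 14 miR-1-3p passed with scaling by total counts (-0.68), at least 10 counts in every library (-0.54) and DESeq2 (-0.49), with adjusted p of 0.0278 to 0.311 over the alternatives. Without 1 library, it ran from -0.58 to -0.32 at day 7 against day 1, from -0.57 to -0.30 at day 14 against day 7, from -0.59 to -0.27 at day 21 against day 7 and from -0.15 to 0.15 at day 21 against day 14, where it was also -0.002 with no filter and -0.003 with only the 2 ages compared. miR-1-5p at day 7 against day 1 was -0.05 with total counts, -0.04 with only the 2 ages compared, -0.07 with summed lines and -0.12 to 0.03 without 1 library, so its sign is not settled. At day 21 against day 1 it was 0.51 (adjusted p = 0.0484 from edgeR) with counts outside the miR-35 family as the total, with adjusted p of 0.0484 to 0.428 over the alternatives. Without 1 library, miR-1-5p against day 1 ran from 0.19 to 0.32 at day 14 and from 0.24 to 0.35 at day 21. These all lay under the 0.37 and 0.39 of the full fit. At day 21 against day 14 it was -0.002 with no filter, -0.01 with only the 2 ages compared and -0.02 to 0.10 without 1 library. The cause of these shifts was not tested.

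With the replicate block, miR-1-3p at day 21 against day 1 was -0.78 (adjusted p = 0.00442 from edgeR), and no call of either arm changed. In the other 5 comparisons same-numbered libraries did not deviate together in every pair (correlations of deviations from -0.654 to 0.387). With 3 libraries an age, these correlations cannot settle whether the numbers pair the samples. The standard error of the log2 fold change was 0.21 or 0.22 for miR-1-5p, at 217 to 838 counts a library, and 0.22 for miR-1-3p.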

Other observations

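The microRNA gene nearest to *mir-1* is *mir-235*, the worm relative of vertebrate miR-92, which ends 10274 nucleotides away on the same strand of chromosome I and was looked up after the values were seen. miR-235-3p was lower on day 7 already and changed little after it. It was at 4568 ± 628 CPM (SD, n = 3) on day 1, 1487 ± 95.5 on day 7, 1383 ± 101 on day 14 and 1495 ± 299 on day 21. Its log2 fold change was -1.62 on day 7 (adjusted p = 1.8e-05 from edgeR) and -1.61 on day 21, each against day 1. Day 21 against day 7 gave 0.01, with an interval of -0.42 to 0.43, against -0.42 for miR-1-3p, and the difference between the microRNAs was not tested.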
